A study of Mus musculus with 8 samples.

Results

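Tight junctions seal the space between neighbouring epithelial cells near their apical surface. Claudins form the strands of the junction and set which ions pass. Occludin and tricellulin, which carry a MARVEL membrane domain, sit in the same strands, with tricellulin concentrated where cell corners meet. The immunoglobulin-like adhesion molecule JAM-A lies beside them, and ZO-1 is the scaffold that ties these proteins to actin. In mammary epithelium these genes are used by luminal cells to hold milk in the lumen, and carcinomas that turn mesenchymal often lose part of them.

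The set described here held 9 such genes, chosen by symbol: the claudins Cldn1, Cldn3, Cldn4, Cldn7 and Cldn8, Ocln (occludin), Marveld2 (tricellulin), F11r (JAM-A) and Tjp1 (ZO-1). All 9 were among the 27179 genes of the count table and passed the filter that left 14382 genes for testing. RNA sequencing was performed on 8 whole tumours of 4T1.13, a metastatic mouse mammary carcinoma line, grown in BALB/c mice from 100000 cells placed in a mammary fat pad and taken at day 14 per the labels, whereas the study's methods give an earlier day. The labels give no age of the mice, which the methods describe as females of a few weeks. The 4 4T1.13-miR-21-KD tumours came from cells with a lentiviral vector whose H1 promoter drives a transcript binding and holding mature miR-21. The 4 4T1.13-VC tumours were from cells with the same vector and a scrambled sequence. Both lines carried mCherry and hygromycin resistance and were pools of a few single-cell clones, so a difference between the lines and one between their clones cannot be told apart. The host mice kept their own miR-21 and contributed stroma to every sample. The knockdown was not checked here, because a held microRNA is not measured by counts of its gene.

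Libraries held 12134849 to 13592695 counts, at which 3 counts, the limit that a count of 0 allows, correspond to 0.221 to 0.245 CPM, the count scaled to a common library size with trimmed-mean (TMM) factors. The carcinoma keratins Krt8 and Krt18 were detected in every tumour, Krt8 at 173 to 939 CPM. Of the defining skin markers, Krt1 had 161 counts in VC replicate 1 and at most 3 in any other tumour, so VC replicate 1 stood apart.

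The sequences that the comparison bears on are those of the sequestered microRNA and of the promoters whose genes moved in opposite directions. The mature miR-21a-5p (RefSeq, GRCm38.p6, chr11:86584120-86584141, minus strand) is shown first, with its seed, bases 2 to 8, in capitals. The promoters of Cldn4 (chr5:134946885-134947184, minus strand), Cldn3 (chr5:134985964-134986263, plus strand) and F11r (chr1:171437311-171437610, plus strand) follow from 250 bases before to 50 after the start site, with the E-box CAGGTG, the binding motif of Snail and Zeb repressors, in capitals on either strand.
miR-21a-5p: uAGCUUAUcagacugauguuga
Cldn4: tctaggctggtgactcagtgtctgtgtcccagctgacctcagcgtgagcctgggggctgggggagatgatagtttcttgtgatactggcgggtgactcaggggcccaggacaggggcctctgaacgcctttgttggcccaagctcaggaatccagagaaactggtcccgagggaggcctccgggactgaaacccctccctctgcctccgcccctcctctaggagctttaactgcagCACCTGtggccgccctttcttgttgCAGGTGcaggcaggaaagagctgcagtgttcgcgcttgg
Cldn3: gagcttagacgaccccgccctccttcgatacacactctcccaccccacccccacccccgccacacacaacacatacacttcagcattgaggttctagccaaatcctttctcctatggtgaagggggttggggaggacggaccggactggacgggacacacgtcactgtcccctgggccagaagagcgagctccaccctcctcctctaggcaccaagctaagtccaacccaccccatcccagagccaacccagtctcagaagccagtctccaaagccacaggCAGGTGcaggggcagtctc
F11r: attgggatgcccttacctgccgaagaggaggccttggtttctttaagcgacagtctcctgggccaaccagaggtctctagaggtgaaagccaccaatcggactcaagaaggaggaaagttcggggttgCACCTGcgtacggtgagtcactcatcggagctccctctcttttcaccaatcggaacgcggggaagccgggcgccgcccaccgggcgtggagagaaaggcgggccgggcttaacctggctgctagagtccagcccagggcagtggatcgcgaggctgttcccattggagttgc
The Cldn4 promoter held 2 E-boxes, at -14 and 11 bases from the start site, where the Cldn3 promoter held 1 at 31 and that of F11r 1 at -122. Promoter windows were found for 8 of the 9 genes, and 6 of the 8 (Cldn3, Cldn4, Cldn7, Ocln, Marveld2 and F11r) held the E-box, against 22.6% of 27025 genes. The 6 included genes that were higher, lower and not called. Some genes have more than 1 window, and by window the E-box was in 8 of 11, against 20.2% of 32851 windows. The members' windows held 52% to 68% G and C, against a median of 52.7% over all windows. No share was matched for this. The Grainyhead-like motif AACCNGTT was in 0 of the 8 genes with a window (2.35% of all genes) and TATAAA in Marveld2 alone (15.7%). The complement of the miR-21 seed, ATAAGCT, was in the longest annotated 3' UTR of 0 of the 9 genes, against 8.14% of 13347 tested genes, and these letters say nothing of other sites.

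Of the 9 genes, 5 were higher in miR-21-KD tumours (Cldn1, Cldn3, Cldn4, Cldn7 and Cldn8), 2 were lower (Tjp1 and F11r) and 2 did not pass (Ocln and Marveld2), by edgeR's quasi-likelihood test at an adjusted p of 0.05. Of all 14382 tested genes, 19.6% were higher and 19.5% lower. The median log2 fold change was 1.37 over the 9 and -0.01 over all genes. These are whole tumours, so fewer cells of a type and less RNA per cell cannot be told apart. Against a minimum change of 1.5-fold edgeR called 0 of the 9, with 5 higher and 1 lower at an unadjusted p under 0.05, and of all tested genes it called 2.32% higher and 1.45% lower. Cldn1 and Cldn3 passed in all 8 omissions of a single tumour, whereas the count of higher genes fell to 2 without VC replicate 2, VC replicate 3, miR-21-KD replicate 1 or miR-21-KD replicate 4, fell to 3 without miR-21-KD replicate 3, and was 7 without miR-21-KD replicate 2. Over all tested genes the 2826 higher calls moved in the same omissions, to 1702, 1449, 1862 and 1754 in the first 4, 1982 in the next and 3290 in the last.

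**Figure D1:**
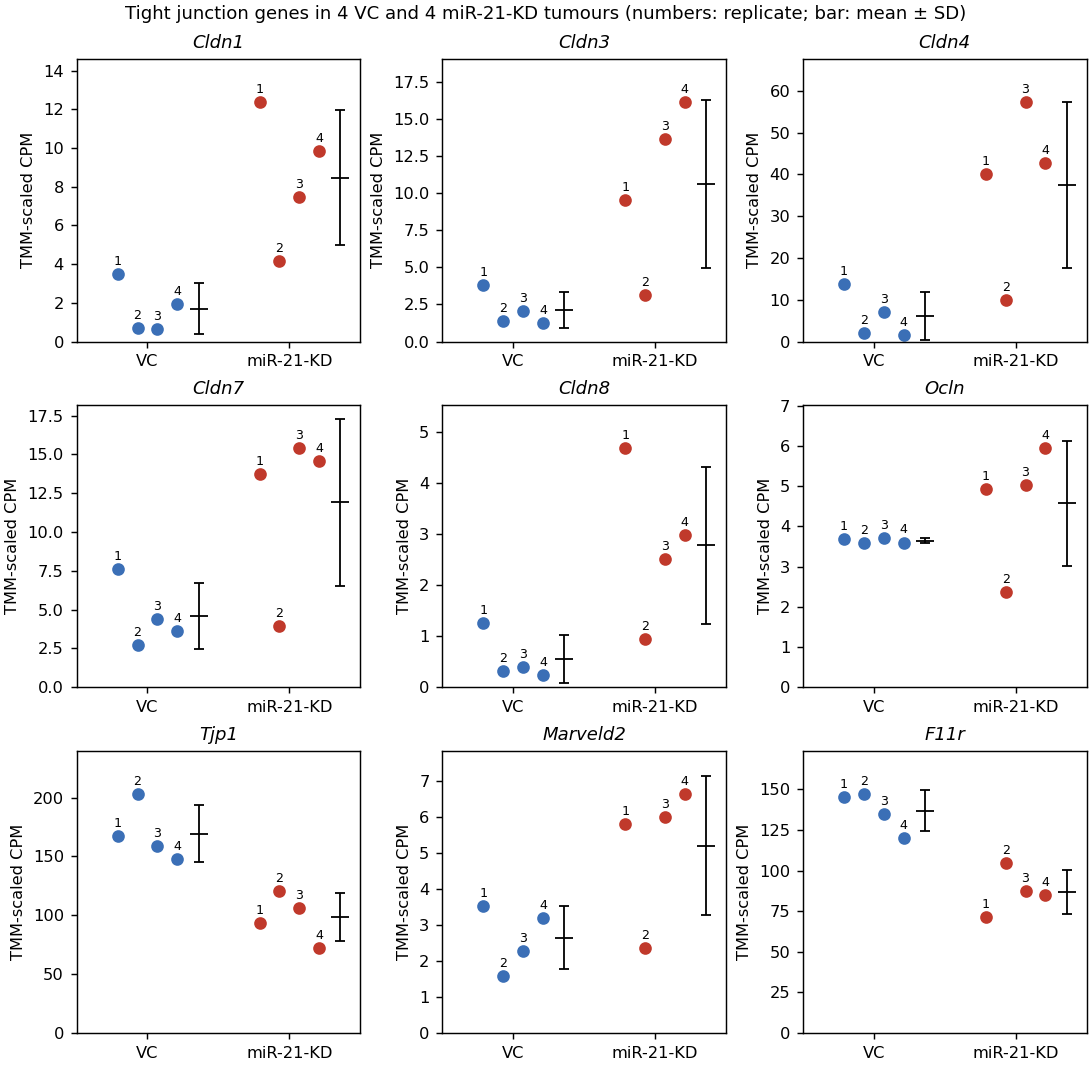
TMM-scaled CPM of each of the 9 genes by tumour, each panel on its own linear axis from 0; points are tumours numbered by replicate (4 VC, blue, and 4 miR-21-KD, red) and bars the mean ± SD. Cldn1 is higher, and Tjp1 and F11r lower, in every miR-21-KD tumour than in every VC tumour.

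Cldn4 and Cldn3, neighbouring claudin genes 39.3 kb apart on opposite strands of chromosome 5, were both higher. Cldn4, a barrier claudin of simple epithelia (chr5:134945123-134946934), measured 13.9, 2.07, 7.09 and 1.63 CPM in VC replicates 1 to 4 and 40.0, 9.98, 57.3 and 42.8 in the miR-21-KD replicates. The groups overlapped only through VC replicate 1 and miR-21-KD replicate 2. The mean went from 6.17 ± 5.70 to 37.5 ± 19.9 CPM (SD, n = 4), a log2 fold change of 2.60 (SE 0.73, adjusted p = 0.0245). Cldn4 lost its call in 5 of the 8 omissions of a single tumour, with log2 fold changes of 2.30 to 2.66 and adjusted p between 0.0501 and 0.0618. Without VC replicate 1 the value was 3.37 (adjusted p = 0.0143). Cldn3, a close relative of Cldn4 (chr5:134986214-134987476), measured 3.83, 1.36, 2.05 and 1.23 CPM in the VC tumours and 9.54, 3.14, 13.6 and 16.1 in the miR-21-KD tumours. Again a single pair overlapped, VC replicate 1 with miR-21-KD replicate 2. Mean levels were 2.12 ± 1.20 and 10.6 ± 5.67 CPM (SD, n = 4), a log2 fold change of 2.31 (SE 0.54, adjusted p = 0.0140). Cldn3 shares 40 exonic bases with the antisense gene Wbscr25, and 1.22% of its 31-base words with other genes, and since the strand setting is unknown, reads from that overlap cannot be told apart.

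Cldn1, a claudin needed for the epidermal barrier (chr16:26356645-26371839, minus strand), measured 3.47, 0.718, 0.630 and 1.96 CPM in the VC tumours and 12.4, 4.17, 7.47 and 9.86 in the miR-21-KD tumours. It was the only one of the 9 genes to be higher without overlap, against 16.3% of all tested genes. Between a VC mean of 1.69 ± 1.33 CPM and a miR-21-KD mean of 8.47 ± 3.50 (SD, n = 4) lay a log2 fold change of 2.31 (SE 0.56, adjusted p = 0.0157). The value was 2.93 without VC replicate 1 (adjusted p = 0.00926) and 3.04 with limma-voom and sample quality weights (adjusted p = 0.000967). Among the omissions of a single tumour it was lowest without VC replicate 3, at 2.03 (edgeR adjusted p = 0.0431). Cldn8, a claudin best known from tight epithelia of the kidney (chr16:88560826-88563183), was the least counted, with 17, 4, 5 and 3 reads in the VC tumours and 58, 12, 31 and 38 in the miR-21-KD tumours. The lowest miR-21-KD value, 0.943 CPM, lay under the highest VC value, 1.25 CPM. The difference between 0.553 ± 0.471 and 2.78 ± 1.54 CPM (SD, n = 4) was a log2 fold change of 2.29 (SE 0.62, adjusted p = 0.0212), and it lost its call in 4 of the 8 omissions, while without VC replicate 1 it stood at 3.08 (adjusted p = 0.0109). Cldn7, which lies along the lateral membrane and binds EpCAM (chr11:69964779-69967886), measured 7.60, 2.71, 4.41 and 3.60 CPM in the VC tumours and 13.7, 3.93, 15.4 and 14.6 in the miR-21-KD tumours. All but miR-21-KD replicate 2 lay above the VC tumours. From a mean of 4.58 ± 2.13 CPM it reached 11.9 ± 5.37 (SD, n = 4), a log2 fold change of 1.37 (SE 0.46, adjusted p = 0.0431), a call lost in 6 of the 8 omissions, with limma-voom (adjusted p = 0.0824) and without a filter on low counts (0.0546).

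Neither MARVEL protein gene passed the test. Ocln, the gene of occludin (chr13:100496504-100552718, minus strand) was nearly level in the VC tumours, at 3.69, 3.59, 3.70 and 3.60 CPM, and measured 4.93, 2.36, 5.03 and 5.95 in the miR-21-KD tumours. The VC tumours lay within the range of the miR-21-KD tumours, so the groups overlapped. Its log2 fold change was 0.32 (95% interval -0.30 to 0.95, adjusted p = 0.369), and it passed without miR-21-KD replicate 2 (0.53, adjusted p = 0.0369). Marveld2 (chr13:100595957-100616971), 43.2 kb from Ocln on the same strand, measured 3.54, 1.60, 2.29 and 3.19 CPM in the VC tumours and 5.82, 2.36, 6.01 and 6.65 in the miR-21-KD tumours. Once more miR-21-KD replicate 2 alone lay within the VC range. Its log2 fold change was 0.97 (95% interval 0.13 to 1.81) with an adjusted p of 0.0654. Marveld2 passed with the replicate number as a block (0.94, adjusted p = 0.0152), with DESeq2 (0.97, adjusted p = 0.0381), with limma-voom and sample quality weights (1.29, adjusted p = 0.00623) and without miR-21-KD replicate 2 (1.21, adjusted p = 0.0113).

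Both genes that fell were well counted. F11r, the adhesion molecule JAM-A (chr1:171437561-171464593), measured 145, 147, 135 and 120.0 CPM in the VC tumours and 71.2, 104, 87.7 and 84.8 in the miR-21-KD tumours. Tjp1, the scaffold ZO-1 (chr7:65296165-65527850, minus strand), measured 167, 203, 159 and 148 CPM in the VC tumours and 93.6, 120.4, 106 and 72.2 in the miR-21-KD tumours. Neither gene overlapped between the groups, as was true of 18.9% of all tested genes in that direction. F11r went from 137 ± 12.5 to 87.0 ± 13.7 CPM and Tjp1 from 169 ± 24.1 to 98.2 ± 20.5 (SD, n = 4). The log2 fold change was -0.65 for F11r (SE 0.12, adjusted p = 0.00807) and -0.79 for Tjp1 (SE 0.17, adjusted p = 0.0105). Both calls held in all 8 omissions of a tumour. Keratins of simple epithelium moved both ways. Krt19 rose from 21.6 ± 16.9 to 263 ± 142 CPM without overlap (SD, n = 4, log2 fold change 3.60, adjusted p = 0.00688). From VC to miR-21-KD tumours the means were lower for Krt8, at 808 ± 173 and 439 ± 213 CPM (log2 fold change -0.88, adjusted p = 0.087) and Krt18 at 1022 ± 243 and 459.8 ± 216 (SD, n = 4, -1.15, adjusted p = 0.0374). The part of these keratins in the falls was not tested.

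**Figure D2:**
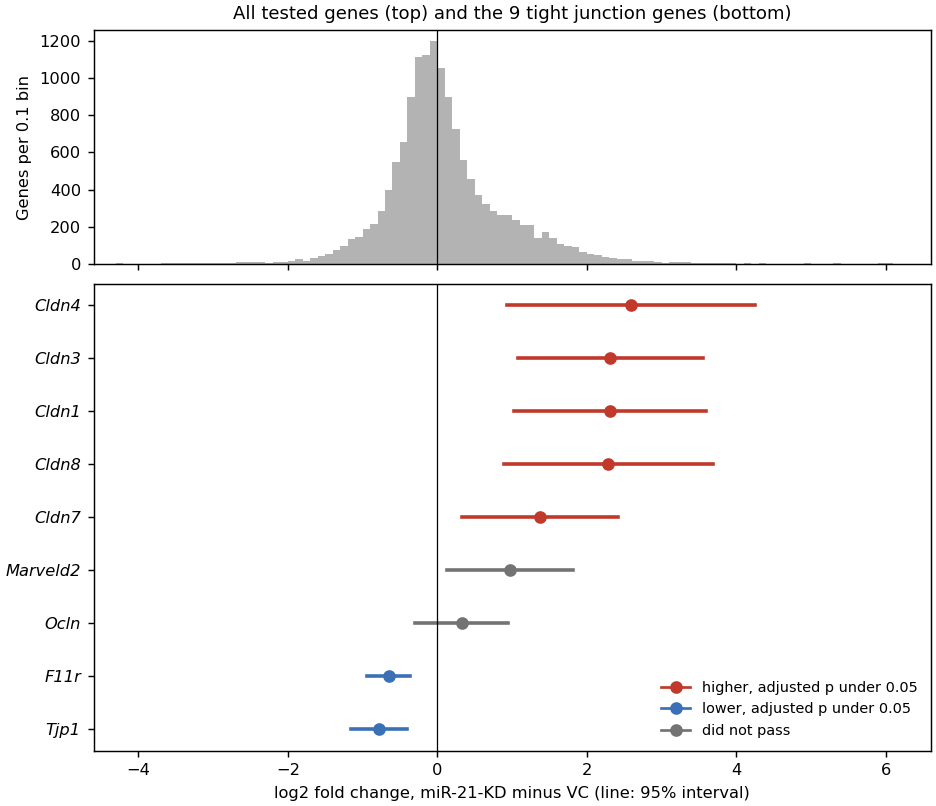
Log2 fold change, miR-21-KD against VC, as a histogram of all 14382 tested genes (top, genes per bin) and for each of the 9 genes with its unadjusted 95% interval (bottom, coloured by call). The 5 claudins lie between 1.37 and 2.60, and Tjp1 and F11r at -0.79 and -0.65.

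Within the groups, 1 tumour of each stood out in rank. VC replicate 1 was the highest VC tumour for 6 of the 9 genes, all 5 claudins among them. The tumour labelled miR-21-KD replicate 2 was the lowest of its group for 7 of the 9, again with all 5 claudins, and the highest for the other 2, Tjp1 and F11r.

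Per kilobase of exon (RPKM), F11r and Tjp1 were the most abundant of the 9 in VC tumours, at 51.4 ± 4.71 and 21.7 ± 3.08 (SD, n = 4), without overlap with each other or with the next gene. Cldn4 (3.40 ± 3.14), Cldn7 (2.35 ± 1.09) and Cldn3 (1.68 ± 0.954) followed, with ranges that overlapped one another. Ocln was at 0.863, Marveld2 at 0.784, Cldn1 at 0.350 and Cldn8 at 0.235, with the ranges of neighbours overlapping again among these and a gap between Cldn3 and Ocln. In miR-21-KD tumours Cldn4, at 20.7 ± 10.9, stood between F11r (32.7 ± 5.13) and Tjp1 (12.6 ± 2.62), and every neighbour in the order overlapped.

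**Figure D3:**
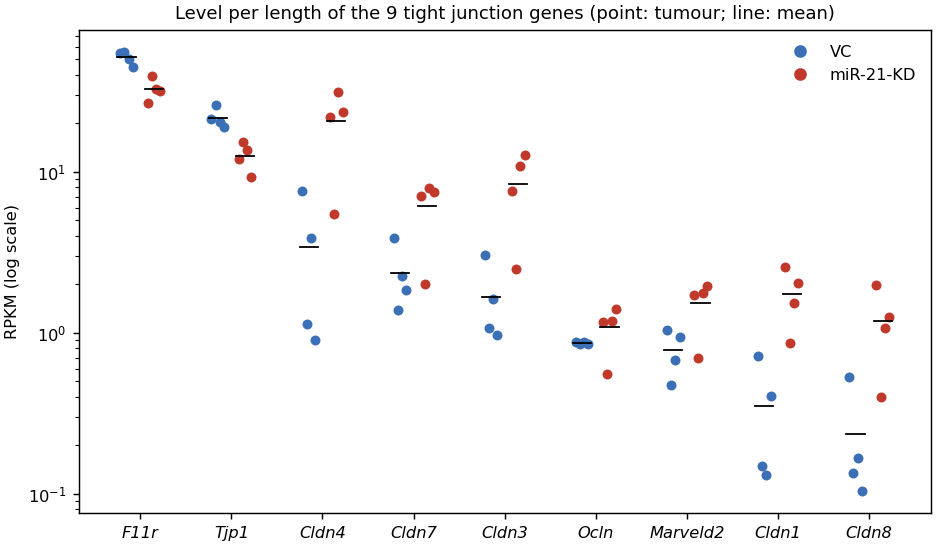
RPKM of the 9 genes (log axis) in VC (blue) and miR-21-KD (red) tumours, ordered by the VC mean; points are tumours and lines means. F11r and Tjp1 lie highest in VC tumours and Cldn4 lies between them in miR-21-KD tumours.

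The makeup of the claudins is described here without a test. Over 23 claudin genes the summed level was 39.8, 29.5, 27.3 and 29.2 RPKM in the VC tumours and 65.3, 30.4, 81.7 and 79.4 in the miR-21-KD tumours. The 5 claudins of the set held 39.8%, 13.2%, 29.6% and 14.5% of it in the VC tumours and 63.1%, 37.1%, 64.8% and 59.4% in the miR-21-KD tumours, overlapping through VC replicate 1. The share of Cldn4 was 10.1% ± 7.92 and 30.0% ± 8.76 (SD, n = 4), overlapping between a VC maximum of 19.2% and a miR-21-KD minimum of 18.1%. Those of Cldn3 (5.15% ± 2.04 and 12.3% ± 3.30) and Cldn1 (1.04% ± 0.659 and 2.80% ± 0.842) did not overlap. Cldn5, the claudin of endothelium, went from 32.8% to 9.76% without overlap, while its own level did not pass the test (log2 fold change -0.69, adjusted p = 0.135).

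**Figure D4:**
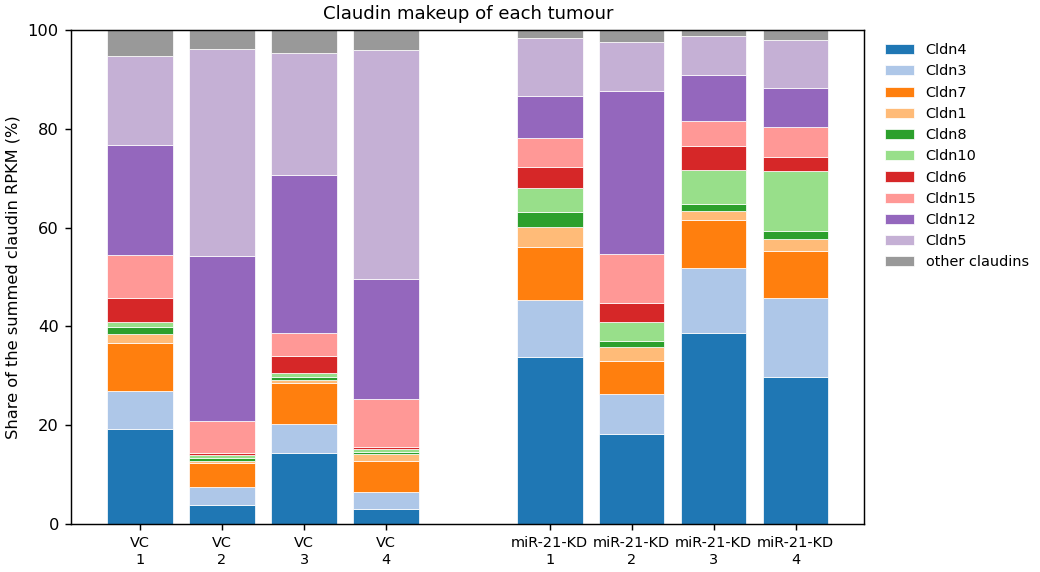
Share of the summed claudin RPKM (percent) held by each claudin in each of the 8 tumours, as stacked bars with the lowest claudins pooled as other. Cldn4 holds 30.0% on average in miR-21-KD tumours and Cldn5 32.8% in VC tumours.

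The junction genes were then set against other epithelial genes. As a log2 ratio to the mean of Krt8, Krt18, Epcam and Cdh1, 0 of the 9 genes were higher without overlap, against 2.45% of all tested genes, and 2 were lower, Tjp1 by a mean difference of -1.15 and F11r of -1.01, against 8.52%. All 5 claudins overlapped between the groups, with mean differences of 2.43 for Cldn4, 1.97 for Cldn1, 1.75 for Cldn3, 1.55 for Cldn8 and 0.90 for Cldn7. Compared within same-numbered pairs of tumours, a choice made after seeing the data, the ratio of each of the 5 claudins was higher in all 4 pairs, where 7.12% of all tested genes were, and that of Tjp1 and F11r was lower in all 4, against 14.2%. The Cldn4 ratio differed by 2.19, 1.73, 2.44 and 3.36 in pairs 1 to 4, and that of Cldn7 by as little as 0.08 in pair 2. The reference mixes Epcam and Cdh1, which rose, with Krt18, which fell, and Krt8, which did not pass. Against Krt8 and Krt18 alone, Cldn1, Cldn3 and Cldn8 were higher without overlap, 3 of the 9 where 32.2% of all tested genes were, a share near that background. None of the 9 was lower, against 0.515% of all genes, and Tjp1 and F11r turned to differences of 0.35 and 0.48 with overlapping groups.

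Other junction genes were counted by list. Of 6 tested further claudins only Cldn10, a pore-forming claudin, passed, from 0.717 ± 0.261 to 12.7 ± 9.40 CPM (log2 fold change 4.12, adjusted p = 0.00601). Of 27 tested other tight junction components, 6 were higher (22.2%) and 7 lower (25.9%), shares near those of all genes, with a median log2 fold change of 0.05. The polarity gene Crb3 (2.53), the tricellular receptor Ildr1 (1.88) and the scaffold Tjp3 (ZO-3, 1.27) had the smallest p of those that rose, and the scaffold Magi1 (-1.06), Cgnl1 (-0.74) and Amot (-1.10) of those that fell. Of 15 adherens junction and desmosome genes, 7 were higher, including Cdh1 (1.52), Jup (0.80) and Nectin1 (0.55), and Ctnnd1 (-0.35) was lower. Among all tested genes 19.6% were higher and 19.5% lower. Epcam, whose protein binds claudin-7 at the lateral membrane, was higher (1.93, adjusted p = 0.0182). Of the matriptase system, the proteases St14 (0.35) and Prss8 (0.60) and the inhibitors Spint1 (-0.65) and Spint2 (-0.48) did not pass.

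Of 10 tested epithelial transcription and splicing factors, 6 were higher and 4 did not pass, with a median log2 fold change of 1.75. Among all tested genes 19.6% were higher, and the list was chosen with earlier results of these data known. The 6 higher factors were Grhl1 (2.23), Grhl2 (2.13), Ovol1 (2.18), Ovol2 (1.74), Esrp1 (2.25) and Esrp2 (1.75). Of 6 tested repressors of junction genes, Snai2 (1.48) and Zeb2 (0.61) were higher and Twist1 (-0.94) was lower, while Snai1 was at -0.01 (adjusted p = 0.958).

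Markers of several cell types were also higher in miR-21-KD tumours, beside 19.6% of all tested genes higher and 19.5% lower. The summed level of 5 basal and myoepithelial markers, 3 of them higher, was 65.2, 10.5, 29.7 and 12.0 CPM in the VC tumours and 312, 40.3, 179 and 229 in the miR-21-KD tumours, with the same tumours at the edges as for the claudins. All 4 adipocyte markers were higher (84.1 to 315 against 416 to 1099 CPM summed), as were 6 of 6 leukocyte markers (1004 to 1678 against 1801 to 3268) and 4 of 6 fibroblast markers (1652 to 3835 against 5601 to 11905). Of the endothelial markers 2 of 6 were higher, and their sums overlapped (364 to 652 against 557 to 799). The 5 pan-epithelial markers, of which Epcam and Cdh1 are also named above, summed to 1282 to 2202 and 787 to 1812 CPM, with Krt19, Epcam and Cdh1 higher and Krt18 lower. Milk markers had 1 higher and 1 lower of 4 tested (33.7 to 202 against 66.7 to 283). Their part in the junction gene results was not tested. The epidermal marker Lor had at most 3 counts and Flg 0 counts in the miR-21-KD tumours, where Krt77 had 14, 0, 6 and 8 counts against 1, 2, 0 and 1 in the VC tumours. Krt10 was lower (-1.94, adjusted p = 0.0351), with 214 counts in VC replicate 1 and 32 to 46 in the other VC tumours, and leaving that tumour out gave -0.94 (adjusted p = 0.0325). Skeletal muscle markers summed to 1.20 to 1.55 and 1.65 to 4.85 CPM.

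**Figure D5:**
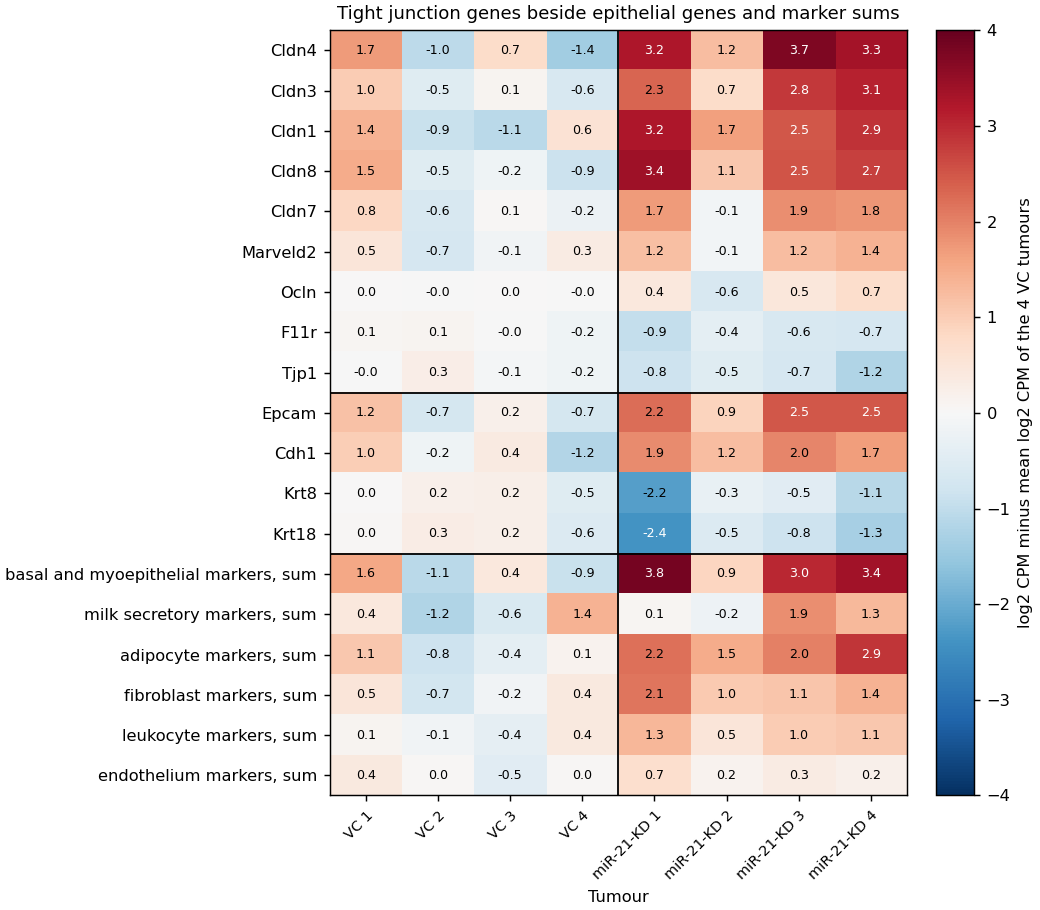
Log2 CPM minus the mean of the 4 VC tumours, for the 9 genes, 4 epithelial genes and 6 marker sums (rows) in the 8 tumours (columns). The claudins and the basal, adipocyte, fibroblast and leukocyte sums are above 0 in every miR-21-KD tumour except Cldn7 in replicate 2, and Tjp1, F11r, Krt8 and Krt18 below 0 in all 4.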

How the data were processed

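The authors deposited raw read counts per gene by Entrez identifier, 1 column per tumour, without normalization. The submitters' processing notes name the mm10 build, Subread, featureCounts, edgeR and limma; versions, strand setting and annotation are not given in the sources used here. Symbols and positions came from GRCm38.p6, and 25275 identifiers matched. Genes were kept by filterByExpr (minimum count 10, total 15), scaled by TMM and tested with edgeR 4.0.16 in R 4.3.3 (robust quasi-likelihood), with Benjamini-Hochberg adjustment over 14382 genes at 0.05. RPKM used the union of exons. The log2 ratios added 0.25 CPM. The scripts were tested on simulated data. The members and lists were chosen with earlier results of these data known. Besides the members, the 3 genes of each list with the smallest adjusted p in each direction were named, and others were named after their values were seen. Not every gene that it covers is reported here. Same-numbered tumours deviated together (r 0.272, 0.421, 0.175 and 0.376). The numbers were therefore taken as pairing the samples in the replicate block and the within-pair ratios only. The main test was unpaired and held no term for the number, and the labels do not say what a number marks. P-values cover the spread between these tumours. Alternatives were DESeq2 1.42.0, limma-voom (limma 3.58.1), other scalings and filters, the replicate block and leaving out each tumour.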

Additional observations from a re-analysis of the deposited data

Results flagged for a closer look

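In a group of 4 tumours, a value was singled out where its gap to the nearest other tumour, divided by the range, was above Dixon's 95% critical value. This held for 2 of 18 groups, and chance does so in about 1 in 20. Cldn7 in miR-21-KD replicate 2 was at 3.93 CPM, against 13.7 to 15.4 in the other miR-21-KD tumours (ratio 0.854), and without that tumour its log2 fold change was 1.66 with an edgeR adjusted p of 0.00556. Cldn8 in VC replicate 1 was at 1.25 CPM, against 0.245 to 0.394 in the other VC tumours (ratio 0.852), and without it the log2 fold change was 3.08 with an edgeR adjusted p of 0.0109.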

How the results depend on the processing

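No member's edgeR, DESeq2 or limma log2 fold change changed sign under the alternatives run. The 5 higher and 2 lower genes became 6 and 2 with the replicate block, which changed the call of Marveld2 and of no other member, and 6 and 2 with DESeq2. With at least 10 counts in every tumour 3 were higher, since Cldn1 and Cldn8 were not among the 7 members tested. At an adjusted p of 0.01 edgeR called 0 higher and 1 lower. DESeq2 called 4 higher at that level, at which all genes were not counted. Against a change of 1.5-fold edgeR called 0 and 0, where 5 and 1 had an unadjusted p under 0.05. Leaving out each tumour gave 2 to 7 higher and 2 to 2 lower. Over all genes, 2826 higher and 2800 lower became 670 and 756 at 0.01 and 334 and 208 against 1.5-fold. Without single tumours they were 1449 to 3290 and 1487 to 3550, with both lowest values without VC replicate 3. They moved by over 1.5 times without VC replicate 2, VC replicate 3 or miR-21-KD replicate 4, the higher also without miR-21-KD replicate 1 and the lower without miR-21-KD replicate 3. Against Krt8 and Krt18 the ratio gave 3 higher and 0 lower members, from 0 and 2 (32.2% and 0.515% of all tested genes), and the differences of Tjp1 and F11r turned from -1.15 and -1.01 to 0.35 and 0.48. Comparison within same-numbered pairs was an alternative chosen after seeing the data. In all 4 pairs the 4-gene ratio was higher for 5 members and lower for 2 (7.12% and 14.2% of all tested genes). Where no construction of the alternative shows it, the cause was not tested. Cldn8 rested on 3 to 17 counts in VC tumours, and no alternative varied the depth.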

Other observations

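Of the claudins too low to test, and chosen after their values were seen, Cldn20 had 4, 1, 3 and 1 counts in VC tumours and 0 in every miR-21-KD tumour, and Cldn11 had 18, 3, 11 and 4 counts in VC tumours and 2, 1, 0 and 5 in miR-21-KD tumours.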
